A study of Mus musculus with 4 samples.

Results

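The genes that load the replicative helicase onto DNA were examined for chromatin accessibility and for the histone variant H2A.Z in mouse liver with and without hepatic Uhrf1. The set was given as a list of 10 genes, namely Mcm2, Mcm3, Mcm4, Mcm5, Mcm6, Mcm7, Mcm10, Cdc6, Cdt1 and Gmnn, of 21938 protein-coding genes in GENCODE vM21 (GRCm38). No measured value was used to choose them, although earlier results of these data were known. Every called peak inside the gene or within 5 kb of its transcription start site (TSS, the 5′ end of the gene record) was taken from each of 4 peak lists. Other genes of origin recognition and helicase activation, 21 in all, were set beside them.

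ATACseq, which cuts and tags accessible DNA with a transposase, and H2A.Z ChIPseq on nucleosomes released with micrococcal nuclease were each carried out once on 2 livers of male C57Bl/6 mice aged 8 to 12 weeks on a normal diet. The WT liver was Uhrf1-fl/fl without Cre, and the Uhrf1hepKO liver was Uhrf1-fl/fl;Alb:Cre, so both carried the floxed allele. The Alb promoter drives Cre in hepatocytes, and the other cells of the liver keep Uhrf1. The same livers gave both assays, which leaves 1 library per condition, no replicate error and no test between genotypes.

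Origins are licensed when the origin recognition complex, with Cdc6 and Cdt1, loads rings of the Mcm2 to Mcm7 proteins onto DNA as an inactive helicase. Mcm10 acts later, when the helicase is activated and the forks are assembled. Geminin, the product of Gmnn, binds Cdt1 and prevents a second loading in the same cycle. These genes are transcribed when cells enter the cycle, through E2F factors and their repressor complexes and through NF-Y at CCAAT boxes, and most hepatocytes of an adult liver are out of the cycle. UHRF1 brings the maintenance DNA methyltransferase to newly replicated DNA.

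The promoter sequences are shown first because they are the DNA under the peaks described next. Mcm3, Mcm5, Mcm4 and Mcm7 had the highest WT ATACseq folds among the genes with overlapping peaks in both livers, and for these the part common to both peaks is given without annotated exons. For Mcm4 it is limited to the 300 bases next to the TSS. Of the peak pairs at Mcm7, the one with the higher WT fold lay within annotated UTR and is not shown, so the part outside exons of the other pair is given. The peak of Mcm2, next in order, lay almost wholly in an exon and is not shown. Mcm6 was added after its values were seen, because its peak held 3 E2F matches, as many as Mcm5. Capitals mark matches on either strand to the E2F motif (TTTGGCGC, TTTCCCGC, TTTGCCGC or TTTCGCGC), to the NF-Y motif CCAAT, to the GC box GGGCGG and to the cell cycle homology region, CHR (TTTGAA or TTCGAA), and matches may overlap each other. All sequences are from GRCm38 on the strand of the gene, 5′ to 3′.
Mcm3, chr1:20820313-20820523, minus strand: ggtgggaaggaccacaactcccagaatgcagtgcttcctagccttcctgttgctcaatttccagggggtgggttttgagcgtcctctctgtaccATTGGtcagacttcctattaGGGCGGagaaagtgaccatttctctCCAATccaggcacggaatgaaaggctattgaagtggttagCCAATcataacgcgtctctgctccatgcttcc
Mcm5, chr8:75109338-75109568, plus strand: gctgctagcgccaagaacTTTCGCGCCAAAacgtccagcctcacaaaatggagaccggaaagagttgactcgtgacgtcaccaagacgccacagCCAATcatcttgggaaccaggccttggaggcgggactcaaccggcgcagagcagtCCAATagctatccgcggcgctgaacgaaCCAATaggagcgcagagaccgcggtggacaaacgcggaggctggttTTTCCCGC
Mcm4, chr16:15637401-15637700, minus strand: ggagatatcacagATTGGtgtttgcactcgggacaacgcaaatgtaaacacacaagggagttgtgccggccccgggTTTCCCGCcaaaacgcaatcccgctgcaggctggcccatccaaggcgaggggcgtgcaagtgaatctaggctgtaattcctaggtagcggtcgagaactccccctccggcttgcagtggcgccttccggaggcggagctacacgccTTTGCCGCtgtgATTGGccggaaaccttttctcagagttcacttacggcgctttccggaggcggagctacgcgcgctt
Mcm6, chr1:128359672-128359839, minus strand: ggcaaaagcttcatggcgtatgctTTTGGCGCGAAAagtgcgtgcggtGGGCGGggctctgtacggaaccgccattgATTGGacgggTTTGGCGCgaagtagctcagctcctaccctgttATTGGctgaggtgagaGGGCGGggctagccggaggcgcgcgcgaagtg
Mcm7, chr5:138171267-138171377, minus strand: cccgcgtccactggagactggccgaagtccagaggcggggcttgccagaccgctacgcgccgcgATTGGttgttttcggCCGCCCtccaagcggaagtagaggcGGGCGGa
The stretches of Mcm5 and Mcm6 each hold an E2F pair on opposite strands that shares bases, and Mcm5 ends in a further E2F match directly before the TSS. Mcm4 holds 2 separate E2F matches. The shown stretches of Mcm3 and Mcm7 hold none, although Mcm3 has matches at 20 and 39 bases past its start, within the peak.

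Mcm10 and Cdt1 each lacked an ATACseq peak in 1 liver, and their promoters are given from RefSeq (GRCm38.p6) as the 250 bases before the start, with the same capitals.
Mcm10, chr2:5012792-5013041, minus strand: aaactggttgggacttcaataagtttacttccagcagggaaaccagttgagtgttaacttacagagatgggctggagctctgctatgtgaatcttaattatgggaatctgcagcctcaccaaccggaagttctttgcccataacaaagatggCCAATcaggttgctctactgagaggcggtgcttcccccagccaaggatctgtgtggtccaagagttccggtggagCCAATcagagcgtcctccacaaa
Cdt1, chr8:122567765-122568014, plus strand: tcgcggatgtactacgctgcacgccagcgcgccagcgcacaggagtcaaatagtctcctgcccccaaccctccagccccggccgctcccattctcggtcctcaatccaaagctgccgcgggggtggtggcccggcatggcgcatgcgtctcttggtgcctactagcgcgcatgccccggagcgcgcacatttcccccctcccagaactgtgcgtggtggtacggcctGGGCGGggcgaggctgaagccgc
Mcm10 carries NF-Y matches and no E2F match here. Cdt1 carries a GC box and no NF-Y match, with an E2F match 33 bases past the start.

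Most of the licensing genes had called accessible chromatin near their start, 8 of the 10 in both livers. At Mcm7, 1 of these 8, the peaks lay past the annotated start. In the WT liver an ATACseq peak lay in the 5 kb windows of 9 of 10 (90.0%, Wilson 95% interval 59.6 to 98.2%), against 30.2% of all protein-coding genes. In the Uhrf1hepKO liver 9 of 10 had one as well, against 27.9%. An H2A.Z peak was present at 10 of 10 in each liver (Wilson 95% interval 72.2 to 100%), against 52.8% of all genes in the WT and 51.0% in the Uhrf1hepKO liver. These intervals cover counting error only.

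The promoters of the 10 genes were rich in CpGs, and peaks were more frequent at CpG-rich genes in general. Within 500 bp of the TSS they held between 34 CpGs (Mcm10) and 89 (Cdt1), with a median of 59.5 against 41.0 over all genes. Among the 12053 genes with at least 34 such CpGs, 47.1% had an ATACseq peak in the WT and 42.9% in the Uhrf1hepKO liver. For H2A.Z these shares were 74.9% and 72.8%. The ATACseq shares of the licensing genes lay above both backgrounds, while the lower bound of their H2A.Z interval lay below the CpG-rich background.

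**Figure D1:**
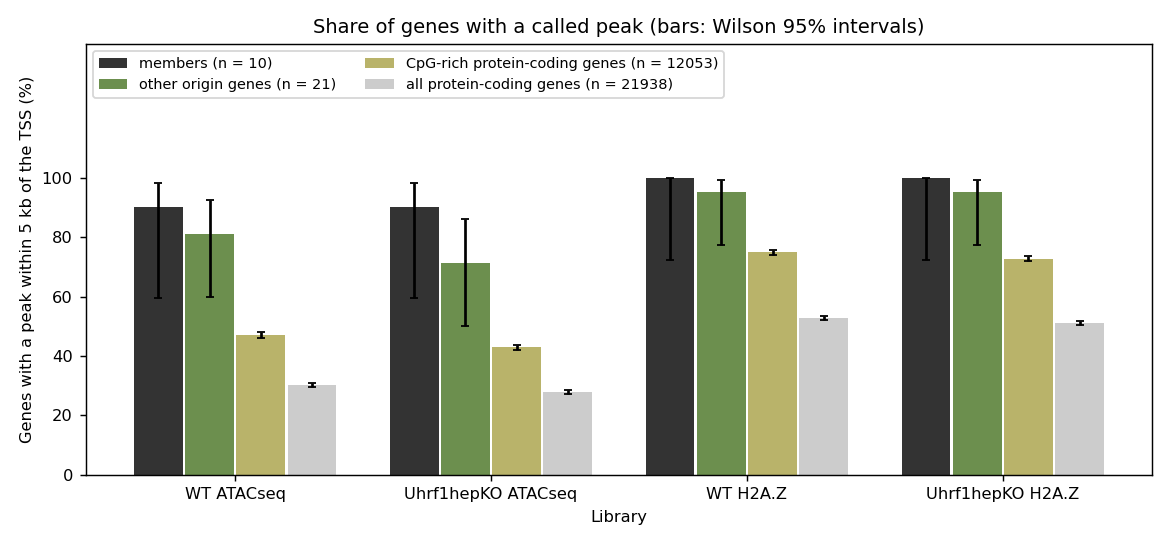
Share of genes with a called peak within 5 kb of the TSS (percent, vertical axis) in each of the 4 libraries, for the 10 licensing genes, 21 other origin genes, 12053 CpG-rich and all 21938 protein-coding genes; lines are Wilson 95% intervals. The licensing genes reach 90.0% in both ATACseq lists and 100% in both H2A.Z lists, and the intervals of the 2 short lists are wide.

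Most of these peaks were found in both livers. Of the 10 WT ATACseq peaks at the licensing genes, 9 overlapped a Uhrf1hepKO peak, against 61.3% of all WT ATACseq peaks. In the other direction 9 of 11 Uhrf1hepKO ATACseq peaks overlapped a WT peak, against 60.3%. For H2A.Z, 23 of 26 WT peaks overlapped a Uhrf1hepKO peak, against 70.0%, and 22 of 33 Uhrf1hepKO peaks overlapped a WT peak, against 75.6%. The shares of the lists cover peaks at any distance from a TSS. The map of called peaks around the TSS shows the arrangement at the licensing genes, gene by gene.

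**Figure D2:**
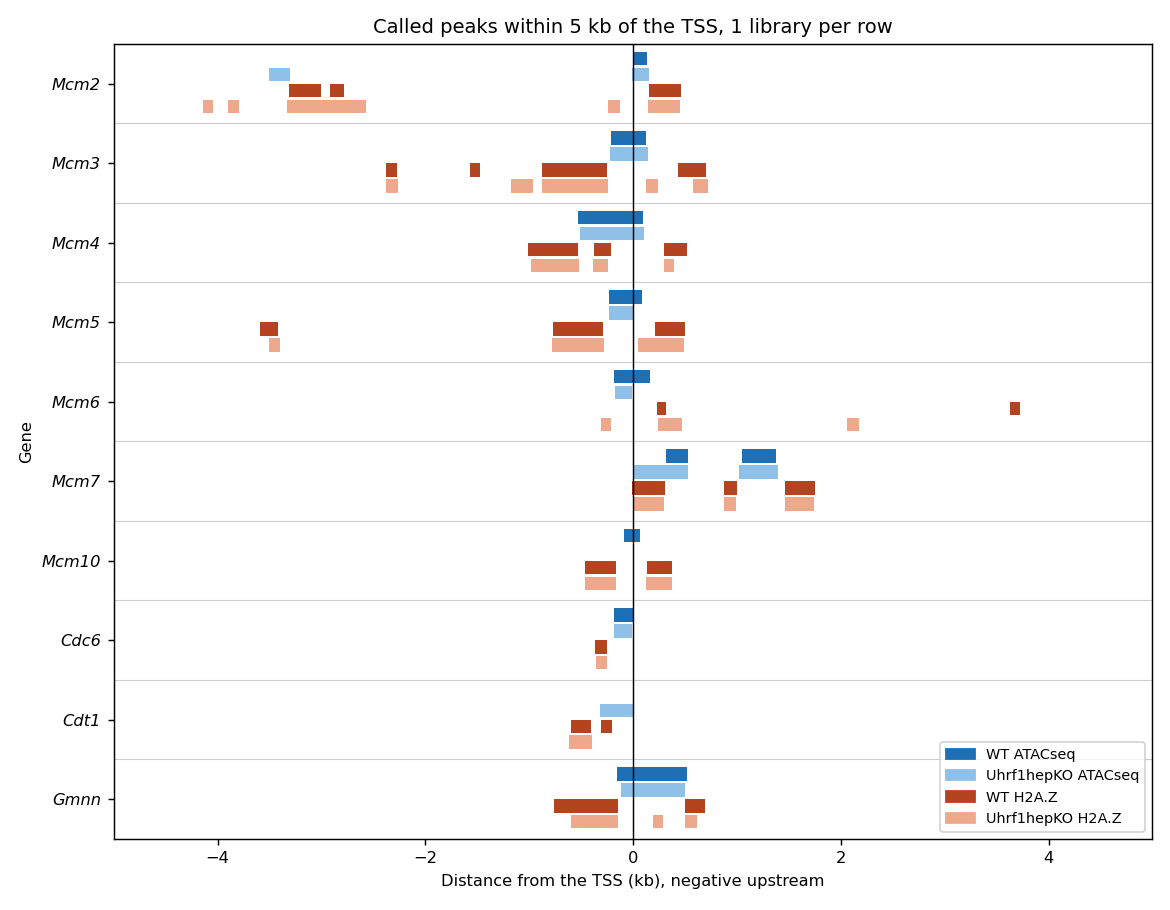
Called peaks within 5 kb of the TSS of the 10 genes, as distance from the TSS in kb (horizontal axis, negative upstream), with the 4 libraries of each gene in separate rows. ATACseq peaks sit at or next to the TSS, except at Mcm7 and for the Uhrf1hepKO peak at Tpra1 upstream of Mcm2, and most H2A.Z peaks lie outside them, with whole H2A.Z peaks inside at Mcm4 and, in the Uhrf1hepKO liver, at Mcm7 and Gmnn.

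In what follows, the fold is the enrichment of reads over the local background given by the peak caller, as a mean across an ATACseq region or at an H2A.Z summit. For 94.2% of WT and 91.9% of Uhrf1hepKO H2A.Z peaks, the folds lay on steps from a single background per list. In that ratio 1 is added to both the reads and the background. Folds were not scaled between libraries, so values of the 2 livers are given side by side. Positions are in bp from the TSS, negative upstream, and refer to the middle of an ATACseq peak or the summit of an H2A.Z peak.

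Among the helicase subunits, Mcm3 had the highest ATACseq fold in the WT liver and Mcm5 in the Uhrf1hepKO liver. The Mcm3 peak (chr1:20820185-20820523 in WT) covered the TSS with a fold of 7.97 in the WT and 6.25 in the Uhrf1hepKO liver. These folds lay at percentiles 97.9 and 92.9 of their lists. H2A.Z lay on both sides of it. The upstream summit had folds of 11.0 (WT, -330) and 10.5 (Uhrf1hepKO, -314), and the downstream summit 9.75 (640) and 8.83 (650). A weaker H2A.Z peak further upstream was also found in both livers, with folds of 3.90 (-2295) and 4.42 (-2302). Over the pseudogene Gm20587, which starts at -1019 on the other strand, each liver had 1 H2A.Z peak that the other lacked, at -1546 in the WT (4.39) and at -1152 in the Uhrf1hepKO liver (3.95). The Uhrf1hepKO list also held a peak in a coding exon (4.88 at 181).

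Mcm5 had the highest H2A.Z fold of the set in each liver. Its ATACseq peak (chr8:75109338-75109651 in WT) covered the TSS with folds of 6.81 in the WT and 7.33 in the Uhrf1hepKO liver. The upstream H2A.Z summit stood at -698 with a fold of 12.4 and at -700 with a fold of 13.0, at percentile 99.3 in both lists. The downstream summits in the intron had folds of 6.82 (442) and 7.20 (415). A distal H2A.Z peak had its summit at -3450 in both livers, with folds of 3.90 and 5.58. Mcm5 thus showed the same 4 places in the 2 livers, 1 accessible and 3 with H2A.Z.

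Mcm4 shares its promoter with Prkdc, which encodes the catalytic subunit of the DNA-dependent protein kinase and starts at -466 on the other strand. A single broad ATACseq peak of 624 bp in the WT (chr16:15637305-15637928) and 614 bp in the Uhrf1hepKO liver spanned both starts, with folds of 6.28 and 5.38. H2A.Z was highest on the Prkdc side, in its intron, with folds of 9.75 (-787) and 9.06 (-764). On the Mcm4 side the folds were 4.39 (339) and 5.35 (348). Mcm4 also had, in both livers, an H2A.Z peak inside the accessible region, between the 2 starts, with folds of 4.87 (-309) and 6.27 (-300).

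At Mcm2 the ATACseq peak lay just past the TSS, in the 5′ UTR (chr6:88898651-88898783 in WT), with folds of 4.58 and 4.28. The flanking H2A.Z peak in the first intron had folds of 5.61 (212) and 7.20 (211). An upstream partner was called only in the Uhrf1hepKO list, at -194 with a fold of 5.35. The strongest H2A.Z in the window belonged by position to Tpra1, which starts at -3471 on the other strand. There the WT list had 2 peaks (8.04 at -3079 and 5.85 at -2842) where the Uhrf1hepKO list had a single peak of 757 bp with a fold of 9.99 at -3067. The Uhrf1hepKO lists held 3 further peaks at Tpra1 that no WT peak of the same assay overlapped. These were an ATACseq peak with a fold of 3.14 (-3405) and H2A.Z peaks with a fold of 4.65 each (-3851 and -4111).

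Mcm6 was the subunit with the lowest H2A.Z. Its ATACseq folds were 4.01 in the WT (chr1:128359504-128359849) and 4.45 in the Uhrf1hepKO liver, where the peak was shorter, 168 bp against 346, and ended at -8. The H2A.Z peak in the intron had folds of 4.63 (259) and 4.65 (288), or 18 and 19 reads at the summit. An upstream peak was called only in the Uhrf1hepKO list (4.65 at -245). Each liver also had 1 weak intronic H2A.Z peak that the other lacked, at 3641 in the WT (3.02) and at 2105 in the Uhrf1hepKO liver (3.77).

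Mcm7 differed from the other genes in that its accessible regions lay inside the gene record, downstream of the annotated 5′ end. Other transcripts of the gene start there, and Ap4m1, which encodes an adaptor protein subunit, starts at 420 on the other strand. The first ATACseq peak lay over the Ap4m1 start, with folds of 5.21 (chr5:138171893-138172101, WT) and 4.21 (526 bp wide, Uhrf1hepKO). The second lay over the downstream Mcm7 starts, with folds of 3.46 (chr5:138171044-138171377, WT) and 4.32. H2A.Z stood at 3 places in both livers. In the Uhrf1hepKO liver the H2A.Z peak nearest the annotated TSS lay wholly within the first accessible region (287 bp), and in the WT liver none of the 3 overlapped one. The folds were 6.82 and 6.97 near the annotated TSS (116 and 175), 6.09 and 5.81 between the accessible regions (936 and 940), and 7.56 and 7.20 past them (1536 and 1540).

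Mcm10 was the only gene of the set with an ATACseq peak in the WT liver and none in the Uhrf1hepKO liver. The WT peak (chr2:5012727-5012880, 154 bp) covered the TSS with a fold of 5.69 and a -log10 q of 5.84. In the Uhrf1hepKO list the nearest ATACseq peak was 360521 bp away. Among all protein-coding genes, 7.19% had an ATACseq call in this window in the WT liver alone, so 1 of 10 was near that share. Of the 1627 WT ATACseq peaks with at least this fold, 92.9% overlapped a Uhrf1hepKO peak, a comparison chosen after the value was seen. By this definition the Mcm10 peak has the lowest fold of that set, so the share does not describe peaks of its own fold. H2A.Z was called on both sides in both livers. The upstream summit had 45 reads in the WT and 47 in the Uhrf1hepKO liver (folds 11.2 at -244 and 11.2 at -243), and the downstream one 18 reads in each (4.63 at 330 and 4.42 at 206). The Uhrf1hepKO list held 2 more intronic H2A.Z peaks with a fold of 5.35 each, at 11221 and 11022, the first of them 12 bp from the start of an internal transcript.

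The loading factors Cdc6 and Cdt1 had folds below the median of the set in both assays, where called. The Cdc6 ATACseq peak (chr11:98907618-98907805 in WT) had folds of 4.19 and 3.60, below the median of its list in each liver (4.31 and 4.05). Its H2A.Z lay on the upstream side only, with folds of 6.58 (-315) and 5.58 (-309). A further H2A.Z peak deep in an intron was present in both livers, with folds of 4.39 (10626) and 5.81 (10581), and the Uhrf1hepKO list had another nearby at 10924 (3.35).

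Cdt1 was the only gene with an ATACseq peak in the Uhrf1hepKO liver alone. The peak (chr8:122567692-122568017, 326 bp) ended at the TSS and had a fold of 3.85 and a -log10 q of 2.06. In the WT list the nearest ATACseq peak was 16127 bp away. Of all genes 4.85% had an ATACseq call in this window in the Uhrf1hepKO liver alone. Among the 4421 Uhrf1hepKO ATACseq peaks with a fold no higher than this, 38.4% overlapped a WT peak, a comparison also chosen after the value was seen. Here the Cdt1 peak has, by definition, the highest fold of the set. Cdt1 also had the lowest H2A.Z of the set, with folds of 4.39 in the WT (17 reads, -487) and 3.49 in the Uhrf1hepKO liver (14 reads, -417), and a second WT peak at -257 (4.39) without a counterpart. These peaks also lie in an intron of the overlapping gene Gm20388, and Cdt1 had the most CpGs of the set, 89.

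Gmnn, the gene of the licensing inhibitor, had the widest ATACseq peak of the set. It covered the TSS and ran into the UTR, over 675 bp in the WT (chr13:24761402-24762076) and 624 bp in the Uhrf1hepKO liver, with folds of 4.02 and 4.69. Upstream H2A.Z was strong, with folds of 10.2 (-335) and 10.7 (-362). The downstream summits had folds of 5.61 (589) and 4.88 (565), and the Uhrf1hepKO list added a peak within the accessible region (3.95 at 272). In the WT liver its ATACseq fold was among the lowest of the set and its H2A.Z fold among the highest, while its Uhrf1hepKO ATACseq fold was above the set's median of 4.45.

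**Figure D3:**
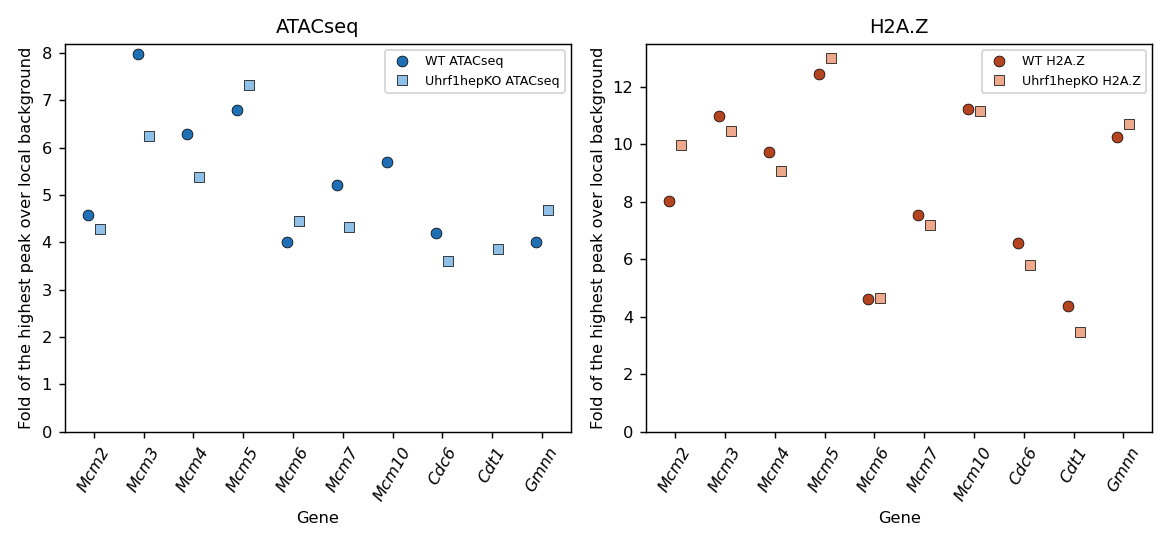
Fold over local background of the highest peak of each gene (vertical axis) in the ATACseq and H2A.Z lists of the WT and Uhrf1hepKO livers, 1 library each, without error. Mcm3 and Mcm5 lead in ATACseq, Mcm5 in H2A.Z, Mcm10 has no Uhrf1hepKO and Cdt1 no WT ATACseq value, and Cdt1 has the lowest H2A.Z fold in both livers. The highest H2A.Z peak lies at Tpra1 for Mcm2 and in the Prkdc intron for Mcm4.

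The highest fold per gene lay between 4.01 and 7.97 in the WT ATACseq list, with a median of 5.21 against 4.65 over all genes with a peak. In the Uhrf1hepKO ATACseq list the range was 3.60 to 7.33, with a median of 4.45 against 4.42. For H2A.Z the ranges were 4.39 to 12.4 in the WT (median 8.90 against 7.07) and 3.49 to 13.0 in the Uhrf1hepKO liver (median 9.53 against 7.44). Both H2A.Z medians rest on peaks at neighbours, at Tpra1 for Mcm2 (8.04 and 9.99) and in the Prkdc intron for Mcm4 (9.75 and 9.06). The next highest folds away from these neighbours were 5.61 and 7.20 at Mcm2 and 4.87 and 6.27 at Mcm4. With these, both medians would be lower, so they do not show higher H2A.Z at the licensing genes themselves. Of the 8 genes with ATACseq peaks in both livers, 5 had the higher fold in the WT list and 3 in the Uhrf1hepKO list. The medians over all ATACseq peaks were themselves 4.31 in the WT and 4.05 in the Uhrf1hepKO list.

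H2A.Z read counts had overlapping counting intervals in the 2 livers at all matched peaks of these genes. The deposited H2A.Z folds rise in equal steps of 1 read, which gave back the number of reads at the summit for all 23 pairs of overlapping peaks. These ranged from 15 to 50 reads in the WT and from 14 to 55 in the Uhrf1hepKO liver. The exact Poisson 95% intervals of the pair overlapped in 23 of 23 cases. For the highest, at Mcm5, they ran from 37.1 to 65.9 reads around 50 in the WT and from 41.4 to 71.6 around 55 in the Uhrf1hepKO liver. The pair farthest apart was at Tpra1 upstream of Mcm2, with 23 reads in the WT (14.6 to 34.5) and 42 in the Uhrf1hepKO liver (30.3 to 56.8), where a WT pair of peaks met 1 wide peak. The fold was higher in the WT for 10 pairs and in the Uhrf1hepKO liver for 13. The intervals cover counting error only and take no account of depth, and their overlap does not show that the counts were equal. Shares over all overlapping pairs of the lists are not given, so these counts were not set against the lists.

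**Figure D4:**
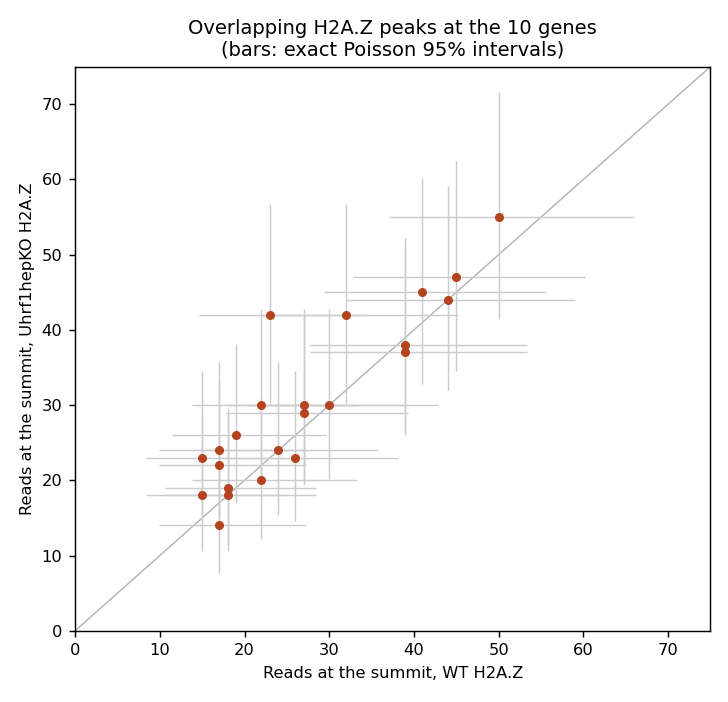
Reads at the summit of 23 pairs of overlapping H2A.Z peaks at the 10 genes, WT (horizontal axis) against Uhrf1hepKO (vertical axis), 1 library each; lines are exact Poisson 95% intervals and the diagonal marks equal counts. The points run along the diagonal from about 15 to 55 reads, and the 2 points at 42 Uhrf1hepKO reads, both from the Tpra1 side of Mcm2, lie farthest above it.

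Summits of overlapping H2A.Z peaks at these genes were close in the 2 livers. Only overlapping peaks were paired, which itself limits the shift, and peaks without a partner are left out. Values over all overlapping pairs of the lists are not given. The H2A.Z summits of a pair lay a median of 12 bp apart, 13 of 23 pairs within 20 bp, and the largest shift, 225 bp, was again the pair at Tpra1. At the Mcm10 upstream peak and the Mcm2 intronic peak the shift was 1 bp, and at the distal Mcm5 peak the summits fell on the same base.

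In the WT liver most ATACseq peaks at these genes lay next to H2A.Z peaks without overlap. In the Uhrf1hepKO liver more of them overlapped by at least 1 bp, while within 200 bp the livers did not differ. In the WT 2 of 10 WT ATACseq peaks, those of Mcm4 and Gmnn, overlapped a WT H2A.Z peak, against 35.3% of all WT ATACseq peaks. All 10 had an H2A.Z peak within 200 bp, against 63.3% of the list, and the gap was at most 69 bp with a median of 41. In the Uhrf1hepKO liver 6 of 11 ATACseq peaks overlapped an H2A.Z peak, against 27.2%. There 11 of 11 lay within 200 bp, against 55.3%, with the largest gap at 75 bp. These list shares cover peaks at any distance from a TSS, and shares limited to CpG-rich promoters are not given. The overlaps found in the Uhrf1hepKO liver alone covered 9 bp at Mcm2, 33 bp at Tpra1 upstream of it, 23 bp at Mcm3 and 287 bp, a whole H2A.Z peak, at Mcm7.

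H2A.Z summits on both sides of the TSS within 1 kb were found at Mcm3, Mcm4, Mcm5, Mcm10 and Gmnn in the WT liver, 5 of 10, against 22.8% of all genes. In the Uhrf1hepKO liver Mcm2 and Mcm6 joined them, which gave 7 of 10, against 20.9%. Shares among the CpG-rich genes alone are not given for this count. At Mcm10 the edges of the flanking peaks were 294 bp apart in the WT and 286 bp in the Uhrf1hepKO liver, and the summits 574 and 449 bp apart. At Mcm5 the space was 495 and 327 bp, and at Mcm4 515 and 534 bp. Cdc6 and Cdt1 had H2A.Z upstream only in both livers.

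The motifs marked in the sequences were counted in the same 300 bases, 250 before and 50 from the TSS on, of every protein-coding gene. An E2F match was found at 7 of the 10 genes (Mcm3, Mcm4, Mcm5, Mcm6, Cdc6, Cdt1 and Gmnn), in 2.79% of all genes and in 4.51% of the CpG-rich ones. An NF-Y match was found at 8 of 10, the exceptions being Mcm7 and Cdt1, against 39.0% and 38.0%. Both motifs together were present at 6 of 10, against 1.21% and 1.93%. The GC box was found at 7 of 10, near the 68.3% of CpG-rich genes, and the CHR at 1, Mcm2, against 18.0% of all genes.

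Such a match is a description of letters and not a bound site. Around the 2 RefSeq starts of Mcm7, which lie downstream of the GENCODE start, the counts changed: the window of the upstream of these held 2 E2F matches and 3 NF-Y matches, and that of the other held 1 NF-Y match and no E2F match. Mcm10, the gene with an ATACseq peak in the WT liver alone, had 3 NF-Y matches and no E2F match. Cdt1, with a peak in the Uhrf1hepKO liver alone, had an E2F and no NF-Y match. No relation between motifs and peaks was tested.

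**Figure D5:**
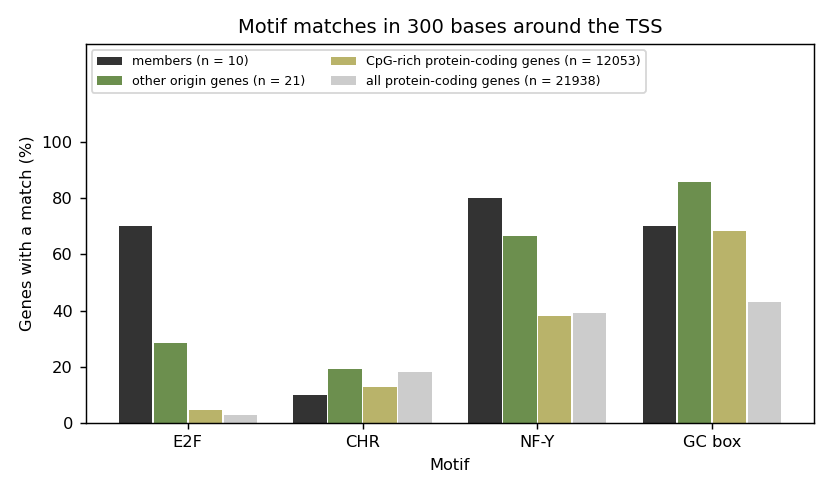
Percent of genes (vertical axis) with at least 1 match to each motif in the 300 bases around the TSS, for the 10 licensing genes, 21 other origin genes, 12053 CpG-rich and all 21938 protein-coding genes. The bars of the licensing genes stand above the others for E2F, at 7 of 10 genes, and for NF-Y, at 8 of 10, and not for the GC box or the CHR.

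The other genes of origin function had similar but not identical lists of peaks. Of 21, 17 had ATACseq calls in the 5 kb window in the WT liver (81.0%) and 15 in the Uhrf1hepKO liver (71.4%), and 20 had an H2A.Z peak in each (95.2%). The highest WT ATACseq folds were those of Gins2 (8.12, against 6.16 in Uhrf1hepKO), a subunit of the active helicase, of Ticrr (7.79 and 6.12), which takes part in helicase activation, and of Mcm8 (6.74 and 4.59), an MCM relative. The highest WT H2A.Z folds were those of Gins3 (14.1 and 11.2) and Cdc45 (12.9 and 13.9), both parts of the active helicase, with Orc1 (11.2 and 8.13) and Gins1 (11.2 and 10.7) tied behind them. No gene lacked a peak in all lists.

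By role, the origin recognition complex had ATACseq peaks at 5 of 6 genes in each liver and Cdc45 with the GINS subunits at 5 of 5. The firing factors Topbp1, Ticrr, Mtbp and Recql4 had H2A.Z peaks at 4 of 4 and an ATACseq peak only at Ticrr, in both livers. Orc4, Lrwd1 and Dbf4 had an ATACseq peak in the WT liver alone and Orc2 in the Uhrf1hepKO liver alone. Over all protein-coding genes these shares were 7.19% for the WT liver alone and 4.85% for the Uhrf1hepKO liver alone. Gins4 was the 1 gene without an H2A.Z peak in either liver. These genes, outside the rule for naming, were singled out after their values were seen. E2F matches were found at 6 of the 21 genes and NF-Y matches at 14.

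The lists did not serve as a check of the tissue or of the deletion. Of 6 hepatocyte genes (Alb, Apob, Ttr, Hnf4a, Serpina1a and Tat), none had an ATACseq peak in the WT liver, 1 in the Uhrf1hepKO liver (Alb), and for H2A.Z the counts were 1 (Ttr) and 0. Of 8 genes of other liver cells, 1 (Sox9) and 0 had an ATACseq peak and 2 in each liver an H2A.Z peak (Cd68 and Sox9). Uhrf1 itself had a peak within 5 kb in all 4 libraries. The number of peaks used was 10582 and 10764 for ATACseq and 51450 and 47135 for H2A.Z, WT first. Read depth is unknown for ATACseq, and for H2A.Z the folds were taken over backgrounds of 3.10 (WT) and 3.30 (Uhrf1hepKO) reads at a base. Whole liver was assayed, so a peak in few cells and a weak one in all cannot be told apart.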

How the data were processed

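Peaks from 4 libraries (ATACseq and H2A.Z, 1 WT and 1 Uhrf1hepKO liver) were analysed as the authors deposited them. The submitters' processing notes name FastQC 0.11.5, Trimmomatic, BWA and Picard. By the methods of the study, reads were aligned to GRCm38.p4 and peaks were called with MACS2 at a p-value of 0.05, in broad mode for ATACseq. The methods describe ATACseq reads as single-end and calls made with the paired-end option. The H2A.Z mode, MACS2 version, a control library and a read shift are not given in the sources used here. Each deposited peak has a display score (10 times the -log10 q), a fold (a ratio to local background) and -log10 p- and q-values. The deposited lists end at q-values of 0.0997 and 0.0993 (ATACseq) and 0.0500 and 0.0489 (H2A.Z), limits that the methods do not name. What was called depends on these limits.

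Analysis was limited to chromosomes 1 to 19, X and Y, with positions 1-based, genes from GENCODE vM21 and sequence from RefSeq GRCm38.p6 (the same chromosome coordinates). Overlap needed 1 bp. Reads at H2A.Z summits came from the fold step (0.244 WT, 0.232 Uhrf1hepKO), within 0.02 of a whole step for 94.2% and 91.9% of peaks. The search for peaks in windows and the motif search were tested on simulated data. The fold steps and the intervals were not. Motifs were searched on both strands. RefSeq held promoters for 8 of the 10 genes, not for Mcm4 and Gmnn. Software was pysam 0.24.0, pandas 2.3.3, scipy 1.17.1, numpy 2.4.6 and matplotlib 3.10.9 under Python 3.11.15. With 1 library per condition no test between livers was made, only counts, intervals and shares over all genes or peaks.

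All peaks of the 10 genes are named. Of the other origin genes, the rule named those without any peak and the 3 with the highest WT fold in each assay (4 where tied). Neighbours were named when they start within 1 kb of a licensing gene's TSS on the other strand. Tpra1, Gm20587 and Gm20388 lie outside that rule and were named where peaks lay at them. The motif counts around GENCODE starts, the shares of whole Uhrf1hepKO lists and those within 200 bp of H2A.Z were added after the peaks were examined. The 10 genes were given as a list, and no measured value was used to choose them. They, the other lists and the motifs were nevertheless set with earlier results of these data known. Alternatives were a stricter q, a median fold filter, other windows, overlaps and flanks.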

Additional observations from a re-analysis of the deposited data

How the results depend on the processing

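Of 74 alternative values for 17 results, 63 stayed within 1.5 times the reported count and 11 did not. A filter at the median fold of each list left 6 of the WT ATACseq peaks at the licensing genes, 15 of the WT and 20 of the Uhrf1hepKO H2A.Z peaks. Of these, 5 of 6 WT ATACseq and 14 of 15 WT H2A.Z peaks overlapped a peak of the other liver, 1 of 6 WT ATACseq peaks overlapped H2A.Z, and H2A.Z flanked the TSS at 3 genes in the WT and 4 in the Uhrf1hepKO liver. The same filter left 6 of 10 licensing genes with an ATACseq peak in the WT and 7 in the Uhrf1hepKO liver. For H2A.Z it left 8 in each liver. These 4 counts stayed within the 1.5 limit, and shares of all genes under the filter are not given. With fewer peaks kept, all these counts fall by construction. The overlap of WT ATACseq with H2A.Z moved from 2 of 10 to 0 when 50% of both peaks had to overlap and to 10 when peaks within 200 bp counted. For the Uhrf1hepKO liver the 50% rule was not tried. With summits within 500 bp, H2A.Z flanked the TSS at 2 genes in the WT. No library could be left out and no paired analysis was possible because each condition has 1 library. Reads at the summit limit the H2A.Z comparison, and the depth of ATACseq is unknown.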
